A study of Mus musculus with 6 samples.

Results

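The common gamma chain, encoded by *Il2rg*, is the receptor subunit shared by a family of cytokines that includes IL-2, IL-4, IL-7, IL-15 and IL-21. Each of these cytokines also binds a chain of its own, and the assembled receptor signals through JAK kinases to STAT5, STAT6 or STAT3. The family is best known from lymphocytes, but macrophages present IL-15 on IL-15 receptor alpha to neighbouring cells, and they respond to IL-4 and IL-13 through the IL-4 receptor. The 8 genes described here are the ligand *Il15*, the shared chain *Il2rg*, and the receptor chains *Il2ra*, *Il4ra*, *Il7r*, *Il13ra1*, *Il15ra* and *Il21r*. The *Il13ra1* product pairs with the IL-4 receptor chain and not with the common gamma chain. They are 8 of 34787 gene names on the arrays and were measured by 10 of 55681 probes. The members were chosen by name with the LPS and inhibitor values of these same arrays known, so their levels and differences are given as a description, without a test.

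Bone marrow-derived macrophages (BMDMs) came from wild type female C57BL/6 mice whose stated age was 6 to 8 weeks in the sample records. The study's methods name the J substrain and an older age range. They had been differentiated for 7 days in medium conditioned by L929 cells. The 3 groups were untreated cells, cells given the bacterial product LPS at 100 ng/ml for 4 h, and cells given a small-molecule inhibitor of USP7 (USP7i) at 10 µM for 30 min before the same LPS stimulus. USP7 is a deubiquitinase, an enzyme that removes ubiquitin from other proteins. The label USP7i names the compound given, and whether a difference came through USP7 was not tested. The LPS concentration is the one in the series record, since the sample records give it per µl, and whether the other cells received the solvent of the inhibitor was not stated. Cy3-labeled RNA of each sample was hybridized to 1 array, with 2 arrays per group from independent experiments, and so few arrays limit how precise any value can be. All 6 arrays lay on 1 slide, where 2 numbers give the position of each array. The number in which the treatments differed was 1 for untreated cells, 2 for LPS and 4 for LPS+USP7i, so slide position and treatment cannot be told apart. The other number was 1 for replicate 1 of each group and 2 for replicate 2, so it cannot be told apart from replicate number either. Levels are log2 quantile-normalized intensities, which can be compared between arrays for a given probe but not between probes. Between 25002 and 27467 of 59305 spots per array were well above background by the scanner software. In bulk RNA, fewer cells of a type and less RNA per cell cannot be told apart.

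The macrophage label was checked against 10 marker genes, and all 10 were well above background on all 6 arrays. Several moved with the treatment. With LPS+USP7i, both arrays lay below both LPS arrays for 6 of the 10 and above them for 2, and the differences were -1.602 for *Fcgr1*, -1.312 for *Cd14*, -1.196 for *Mertk* and -1.001 for *Spi1*. The mean normalized log2 level of the list was 14.65 and 14.39 on the untreated arrays, 14.75 and 14.59 on the LPS arrays, and 14.21 and 13.99 on the LPS+USP7i arrays. The part of this in the lower levels of the members with LPS+USP7i was not tested. Of 6 T cell markers, *Cd3g* stayed under the well-above-background level on all 6 arrays and *Cd3d* passed it on 1, whereas *Cd3e*, *Lck*, *Cd5* and *Cd28* were so on all 6. *Lck* and *Cd28* moved with the treatment, *Lck* from a mean log2 level of 6.89 in untreated cells to 11.12 with LPS and 8.64 with LPS+USP7i, and *Cd28* from 12.75 to 10.49 and 12.28. The summed processed signal of the T cell list was 7019 and 11727 on the untreated arrays, 3525 and 5009 on the LPS arrays, and 4717 and 6403 on the LPS+USP7i arrays. These sums are not normalized and rest mainly on *Cd28*, and on the LPS arrays also on *Lck*. The mean normalized log2 level of the list, 7.00 and 7.46, 7.06 and 7.77, and 7.21 and 7.25 in the same order, did not fall with LPS. Their part in the results for *Il2ra* and *Il7r*, genes also made by lymphocytes, was not tested. Of the markers of other cells, 2 of 5 for NK cells, 1 of 5 for B cells, 0 of 5 for mast cells and basophils, 4 of 5 for neutrophils and 1 of 5 for dendritic cells were well above background on all 6 arrays. The dendritic cell marker *Siglech* had mean log2 levels of 15.34, 14.61 and 15.36 in untreated, LPS and LPS+USP7i cells. *Zbtb46* was well above background on the LPS and LPS+USP7i arrays only, and the other 3 on no array. With LPS+USP7i against LPS, *Mpo* was lower and *Elane* higher on both arrays, and the other 3 neutrophil markers overlapped. The part of these cells in the results was not tested.

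Most of these genes had a higher signal with LPS than without, and for most of those the signal was lower with USP7i than with LPS alone. With LPS, both arrays lay above both untreated arrays for 6 of the 8 genes by their brightest probe and below them for 1, and the groups overlapped for 1. Over all genes the corresponding shares were 31.0% above and 29.9% below. With LPS+USP7i, both arrays lay below both LPS arrays for 5 of the 8 genes and above them for 2, against 25.3% below and 26.8% above over all genes. The median log2 difference of the 8 genes was 1.81 for LPS minus untreated and -1.12 for LPS+USP7i minus LPS, while the medians of all genes were 0.0016 and 0.00091. Since known values of these comparisons chose the genes, nothing is read from these counts. The comparisons share the LPS arrays. By the brightest probe, 7 of the 8 genes were well above background on all 6 arrays, and *Il2ra* was so on the 2 LPS arrays only.

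**Figure D1:**
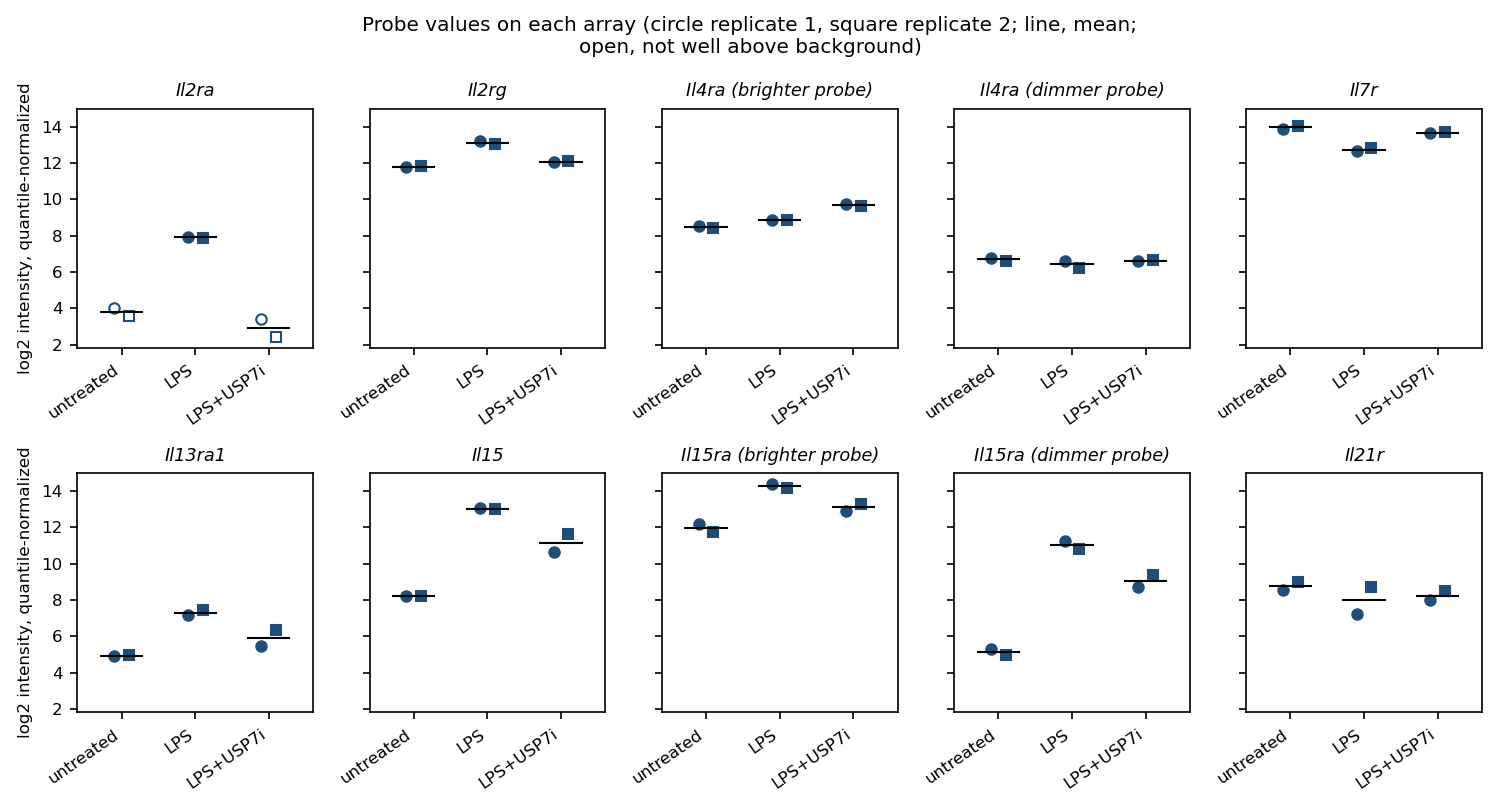
Log2 quantile-normalized intensity of the 10 probes of the 8 genes (vertical axis) on each of the 6 arrays, by group (horizontal axis). Circles are replicate 1, squares replicate 2, lines group means, and open symbols values not well above background. The *Il15* mean went from 8.23 without LPS to 13.05 after it, and *Il2ra* was well above background on the LPS arrays only.

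IL-15, the only ligand among the 8 genes, sustains NK cells and memory CD8 T cells. The *Il15* probe lies at chr8:84858403-84858462 of the mouse build mm9. Its log2 level was 8.24 and 8.22 on the untreated arrays, 13.05 and 13.04 on the LPS arrays, and 10.64 and 11.64 on the LPS+USP7i arrays. Every LPS value was thus above every LPS+USP7i value, and these were above both untreated values. The difference was 4.81 ± 0.36 (SE, n = 2 arrays per group) on the log2 scale for LPS minus untreated, or 28.1-fold. This SE, like the others here, pools the spread of all 3 groups, and a fit of the 2 groups compared gave 0.05. For LPS+USP7i minus LPS it was -1.91 ± 0.36, and the LPS+USP7i mean remained 2.91 above the untreated mean. The 2 LPS+USP7i arrays differed by more than the arrays of either other group (SD 0.71, against 0.016 and 0.0043). Taken by replicate number, the LPS+USP7i minus LPS difference was -2.41 for replicate 1 and -1.40 for replicate 2.

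IL-15 receptor alpha holds IL-15 at the surface of the producing cell, and *Il15ra* was read by 2 probes that gave the same order of groups but unlike sizes. The brighter probe, at chr2:11655416-11655475 (mm9), read 12.22 and 11.77 before any stimulus, 14.40 and 14.20 after LPS alone, and 12.90 and 13.32 after LPS with the inhibitor. Its LPS minus untreated difference was 2.30 ± 0.23, and its LPS+USP7i minus LPS difference was -1.19 ± 0.23. The other probe, at chr2:11654809-11654868, gave 5.33 and 4.98, then 11.25 and 10.83, then 8.73 and 9.40. By this probe the LPS minus untreated difference was 5.89 ± 0.31, or 59.3-fold, where the brighter probe gave 4.93-fold. Its untreated signal was near background, and the normexp method gave 4.32 (19.9-fold). The mean of both probes gave 4.10. Both probes placed every LPS+USP7i array between the untreated and the LPS arrays, so they differ in the size of the change and not in its direction.

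The alpha chain of the IL-2 receptor (CD25), encoded by *Il2ra*, raises the affinity of that receptor for IL-2. Its probe at chr2:11614744-11614803 (mm9) was well above background on both LPS arrays, at log2 levels of 7.93 and 7.89, and on none of the other 4 arrays. The measured values there were 4.01 and 3.60 in untreated cells and 3.42 and 2.42 with LPS+USP7i, so only bounds can be given. Set against the lowest signal counted as well above background on each dim array, or the probe's own value where that was higher, the LPS mean was at least 15.3-fold above untreated cells and at least 12.4-fold above LPS+USP7i. The log2 differences before this bound, 4.11 ± 0.38 and -4.99 ± 0.38, depend on the background correction and came to 1.83 and -2.03 with the normexp method, smaller than the bounds, which hold for the processed signal only. Untreated and LPS+USP7i cells, neither well above background, were not compared.

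*Il2rg*, the shared chain, had close replicates in each group. The probe at chrX:98460130-98460189 (mm9) read 11.79 and 11.82 on the untreated arrays, 13.20 and 13.05 on the LPS arrays, and 12.05 and 12.09 on the LPS+USP7i arrays. LPS minus untreated was 1.32 ± 0.08 (2.50-fold) and LPS+USP7i minus LPS was -1.06 ± 0.08. The LPS+USP7i arrays kept 20.0% of the log2 difference that LPS made, whereas *Il15* kept 60.4% and the brighter *Il15ra* probe 48.4%. These shares are descriptions of means of 2 arrays and were not compared by a test.

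The IL-13 receptor chain encoded by *Il13ra1* joins with the IL-4 receptor chain to form the type II receptor for IL-4 and IL-13. Its probe at chrX:33710154-33710213 (mm9) gave low signals, with 4.93 and 4.95 for the untreated samples, 7.15 and 7.45 for LPS, and 5.46 and 6.35 for LPS+USP7i. All of these were well above background, and the groups did not overlap. The differences were 2.36 ± 0.33 for LPS minus untreated and -1.39 ± 0.33 for LPS+USP7i minus LPS. The normexp method, whose offset compresses low signals, gave 1.26 and -0.88.

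*Il4ra*, which encodes the chain that binds IL-4 in both receptor types, was the member whose brighter probe was highest with LPS+USP7i. That probe, at chr7:132722922-132722981 (mm9), read 8.54 and 8.44 on the untreated arrays, 8.85 and 8.87 on the LPS arrays, and 9.74 and 9.65 on the LPS+USP7i arrays. The LPS+USP7i minus LPS difference was 0.84 ± 0.07, or 1.79-fold, and LPS minus untreated was 0.37 ± 0.07. The second probe, at chr7:132712550-132712609, did not show this pattern. Its values were 6.76 and 6.62, then 6.60 and 6.25, then 6.59 and 6.65, with a LPS+USP7i minus LPS difference of 0.20 ± 0.14 and overlapping arrays. The LPS minus untreated difference of the 2 probes had opposite signs (-0.27 ± 0.14 for the second), and the mean of both probes gave 0.05 ± 0.09, no clear difference. For LPS+USP7i minus LPS that mean gave 0.52 ± 0.09. With each array scaled to its 75th percentile, the median of all genes moved by 0.40 for LPS minus untreated, and the brighter *Il4ra* probe also stood at 0.40, so a difference with LPS relative to other genes was not seen on that scale.

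The IL-7 receptor chain, encoded by *Il7r*, is shared by the receptors for IL-7 and TSLP. It was the 1 gene that was lower with LPS on both arrays. Its probe at chr15:9435976-9436035 (mm9) gave bright signals, 13.86 and 14.07 for the untreated samples, 12.65 and 12.81 for LPS, and 13.65 and 13.71 for LPS+USP7i. The differences were -1.24 ± 0.11 for LPS minus untreated and 0.95 ± 0.11 for LPS+USP7i minus LPS. LPS+USP7i minus untreated was -0.28, and both LPS+USP7i arrays were below both untreated arrays. Under 75th percentile scaling the LPS minus untreated difference was -0.73, with the median of all genes at 0.40, and LPS+USP7i minus untreated was 0.03, so the direction of this last difference depends on the scaling.

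The IL-21 receptor chain, encoded by *Il21r*, was the 1 gene whose groups overlapped with LPS. The probe at chr7:132776725-132776784 (mm9) read 8.56 and 8.97 on the untreated arrays, 7.24 and 8.74 on the LPS arrays, and 8.00 and 8.49 on the LPS+USP7i arrays. The 2 LPS arrays differed by more than the groups did (SD 1.06). LPS minus untreated was -0.78 ± 0.58, and it became -0.03 without LPS replicate 1 and -1.53 without LPS replicate 2. LPS+USP7i minus LPS was 0.25 ± 0.58, and became -0.50 and 1.01 in the same way. Replicate 1 was the lower array in each of the 3 groups. Taken by replicate number, LPS minus untreated was -1.32 and -0.23, and LPS+USP7i minus LPS was 0.76 and -0.25. With replicate number as a block, the SE of both differences was 0.35.

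**Figure D2:**
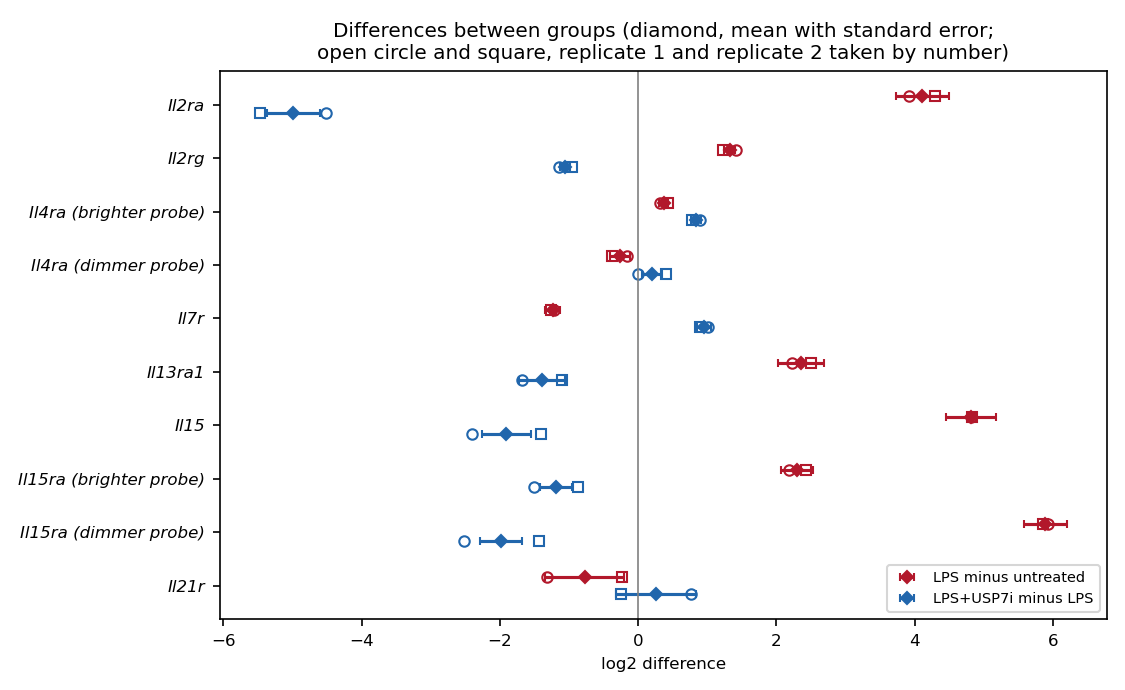
Log2 differences between groups (horizontal axis) for the 10 probes (vertical axis), LPS minus untreated in red and LPS+USP7i minus LPS in blue. Diamonds are group means with the standard error, and open circles and squares are replicates 1 and 2 taken by number. The *Il2ra* bar is drawn from measured values, although only the bound of 15.3-fold holds for LPS, and the *Il21r* bars cross or approach zero.

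Promoter sequences from RefSeq (GRCm38.p6) were held for 7 of the 8 genes, and *Il15* was not among them. Since several genes moved together, the bases before the start of each gene, at most 250, were searched on both strands for 3 motifs. These were TTCNNNGAA, the form bound by STAT proteins, GAAANNGAA, a core of interferon response elements, and the NF-κB consensus. Of the 7 stretches, 3 held a match to any of these, where 16.8% of all promoters did over 250 bases and 4.56% over 73, the longest and the shortest stretch. The 3 are shown to let the matches be seen in context, 5′ to 3′ on the strand of the gene with the matches in capitals.
Il2ra, chr2:11642542-11642791, plus strand: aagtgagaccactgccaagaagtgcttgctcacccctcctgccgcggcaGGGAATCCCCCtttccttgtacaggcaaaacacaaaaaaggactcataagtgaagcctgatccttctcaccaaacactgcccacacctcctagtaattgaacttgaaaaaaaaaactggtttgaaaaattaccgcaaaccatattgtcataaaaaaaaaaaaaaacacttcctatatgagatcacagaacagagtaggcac
Il7r, chr15:9529942-9530126, minus strand: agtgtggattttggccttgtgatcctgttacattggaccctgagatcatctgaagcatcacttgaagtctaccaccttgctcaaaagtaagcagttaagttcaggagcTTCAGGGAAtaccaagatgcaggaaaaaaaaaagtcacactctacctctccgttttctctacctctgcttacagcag
Il15ra, chr2:11705043-11705171, plus strand: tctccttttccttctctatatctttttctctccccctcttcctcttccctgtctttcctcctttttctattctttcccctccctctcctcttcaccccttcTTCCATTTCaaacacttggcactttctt
The *Il2ra* stretch held 2 overlapping NF-κB matches, and 3.9% of all 32851 promoters held at least 1 over the same 250 bases. The *Il7r* stretch of 185 bases held 1 TTCNNNGAA match, found in 5.05% of promoters over that length. The *Il15ra* stretch of 129 bases held 1 GAAANNGAA match, on the other strand, against 3.33%. Stretches under 250 bases were cut where the gene begins, which lay before the start marked by the promoter sequence. Their shares were counted over the bases directly before the marked start of every promoter, so these windows are not placed alike. A match is a description of letters only, and nothing was measured on these sequences.

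The other genes of the pathway were taken as 44 genes in 4 lists, and these were tested by limma with Benjamini-Hochberg adjustment over all 55680 probes. The lists were fixed with earlier results of these data known. Their counts, set beside the shares of all genes, are therefore a description and not independent support. With LPS, 16 of the 44 were higher and 4 lower at an adjusted p of 0.05. Over all genes 7.98% were higher and 12.8% lower. Under 75th percentile scaling 23 of the 44 were higher, but so were 12150 of all 34787 genes, so how far the list stands out depends on the scaling. With LPS+USP7i against LPS, 3 were higher and 9 lower, against 5.52% and 4.27% of all genes. Of the 16 genes higher with LPS, 9 were lower with LPS+USP7i, as were 1027 (37.0%) of the 2775 such genes on the whole array. The comparisons share the LPS arrays with opposite sign, which by itself favors this overlap, and the shares were not tested. The median log2 difference of the 44 genes was 0.27 for LPS minus untreated and -0.27 for LPS+USP7i minus LPS. All 12 of the LPS+USP7i calls were lost when only the LPS and LPS+USP7i arrays were fitted, or when either untreated array was left out, where the smallest adjusted p was 0.0561 and no gene on the array was called. These are in effect the same fit, since a single untreated array adds nothing to the residual spread. At an unadjusted p of 0.05, limma on those 2 groups alone gave 4330 genes higher and 3674 lower. Without LPS replicate 1 the pathway calls came to 0 higher and 4 lower, and without LPS replicate 2 to 1 and 5. The 16 genes higher with LPS became 8 without either untreated array and 9 without LPS replicate 1.

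Signal transducers made up 9 of the 44 genes, of which 5 rose with LPS and none fell. *Jak2*, a kinase of many cytokine receptors, rose by 3.94 ± 0.27 (log2, adjusted p = 0.00493) and fell by 2.24 with LPS+USP7i (adjusted p = 0.0268). With replicate number as a block in the limma fit, the LPS+USP7i call of *Jak2* was lost (adjusted p = 0.0522). *Stat5a*, a transcription factor activated by gamma chain receptors, rose by 3.16 ± 0.21 (adjusted p = 0.00465) and fell by 2.32 with LPS+USP7i (adjusted p = 0.0178). *Stat5b* rose by 0.81 and fell by 1.54 with LPS+USP7i, and *Tyk2* rose by 0.98 and fell by 1.67, so that both ended below untreated cells. *Stat3* rose by 1.10 with LPS (adjusted p = 0.0235). *Irs2*, an adaptor recruited by the IL-4 receptor, rose by 3.42 with LPS+USP7i against LPS (adjusted p = 0.0253).

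Among the 8 genes raised by gamma chain cytokines through STAT5 or acting in feedback, 6 rose and 1 fell with LPS. The suppressors of cytokine signaling *Socs3* and *Socs1* rose by 7.91 ± 0.27 and 7.45 ± 0.37 (adjusted p = 0.00261 and 0.00338), and *Cish*, a STAT5 target of the same family, by 6.83 ± 0.51 (adjusted p = 0.00539). *Mcl1*, a survival factor, fell by 1.56 (adjusted p = 0.00517), and by 0.99 under 75th percentile scaling and 0.94 by the mean of its probes. With LPS+USP7i only *Socs2* of this list passed the test, lower by 0.92 on the log2 scale (-0.92, adjusted p = 0.0217). This call was kept in 6 of 15 alternatives, and the difference was -0.36 with normexp and -0.61 with the deposited values. The LPS+USP7i minus LPS values of *Socs3*, *Socs1* and *Cish* were -1.56, -1.72 and -2.17, with adjusted p of 0.0515, 0.0785 and 0.0912.

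Of 16 genes raised by IL-4 and IL-13 through STAT6 in macrophages, 4 rose with LPS, 1 fell, and 4 were not well above background on any array. The chemokines *Ccl17* and *Ccl22* rose by at least 57.5-fold and at least 6.65-fold with LPS (adjusted p = 0.00872 and 0.00377). *Ccl24* rose by 2.92 on the log2 scale (adjusted p = 0.028), and by 1.87 with normexp. The bounds hold for the processed signal only, since with normexp *Ccl17* and *Ccl22* rose 11.5-fold and 2.47-fold. All 3 chemokines were lower with LPS+USP7i. The log2 difference was -4.24 for *Ccl17* (adjusted p = 0.0362) and -2.83 for *Ccl24* (adjusted p = 0.0497), and *Ccl22* was at least 5.15-fold lower (adjusted p = 0.011). With replicate number as a block in the limma fit, the *Ccl24* call was lost (adjusted p = 0.0771). Those of *Ccl17* and *Ccl22* were kept there (adjusted p = 0.0362 for each), but not in the fit of the 2 groups compared. With normexp *Ccl17* gave -3.03, *Ccl24* gave -1.72, and *Ccl22* was 2.37-fold lower. Without 1 of the LPS+USP7i arrays, *Ccl17* was 12.1-fold or 29.6-fold lower, against 18.9-fold. *Pparg*, a nuclear receptor that marks alternatively activated macrophages, went the other way, falling with LPS (-2.25, adjusted p = 0.00304) and rising by 1.01 with LPS+USP7i (adjusted p = 0.0192).

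Of the 11 remaining ligands and receptor chains, 7 were not well above background on any array, including *Il2rb*, the IL-2 and IL-15 receptor beta chain, and the ligands *Il2*, *Il13* and *Il21*, which are named here after their values were seen. *Tslp*, whose receptor includes the *Il7r* product, was well above background on the LPS arrays only, where it was at least 4.66-fold above untreated cells and at least 3.61-fold above LPS+USP7i by the processed signal (adjusted p = 0.00249 and 0.00987), and 1.98-fold above either with normexp. *Crlf2*, its other receptor chain, differed by -0.28 with LPS (adjusted p = 0.0442), a call kept in only 3 of 15 alternative analyses, and by 0.34 under 75th percentile scaling, so no direction is given for it. *Il4* was called lower with LPS and higher with LPS+USP7i, but its probe was well above background on the untreated arrays only, so no fold is given, and the calls were kept in 6 and 5 of 15 alternatives.

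**Figure D3:**
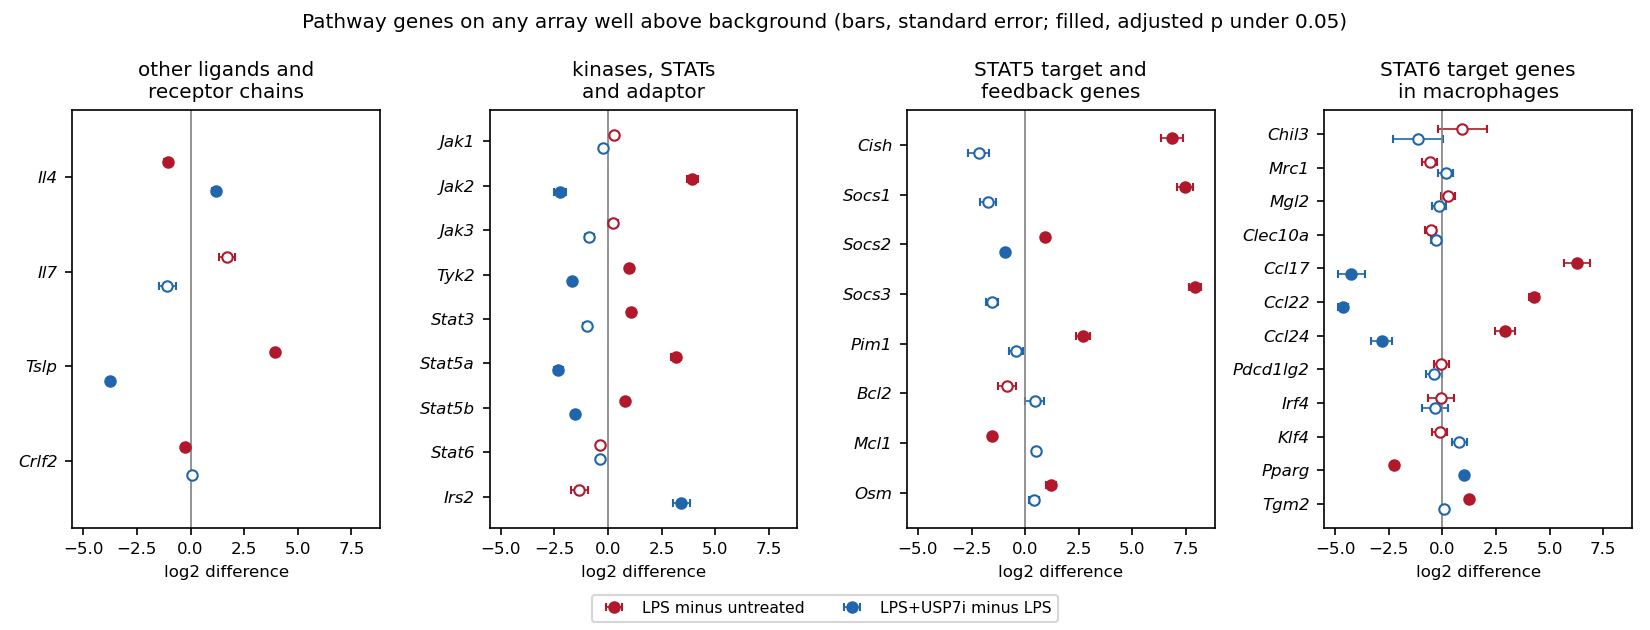
Log2 differences (horizontal axis) with standard errors for the pathway genes well above background on at least 1 array, in 4 lists, LPS minus untreated in red and LPS+USP7i minus LPS in blue. Filled symbols passed an adjusted p of 0.05 with limma. *Socs3* and *Socs1* lie at 7.91 and 7.45 with LPS, and *Irs2* stands apart at 3.42 with LPS+USP7i.

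The genes whose values over the 6 arrays were most like each member were sought among 7074 genes with a range of at least 1 on the log2 scale. For *Il15* these were *9930111J21Rik2*, *Rbbp8* and *Nt5c3* (Pearson r of 0.9994, 0.9994 and 0.9991), and for *Il15ra* they were *LOC546061*, *Gbp4* and *Ifi47* (0.9997, 0.999 and 0.9983). *Il2rg* was most like *Cx3cl1*, *Fscn1* and *Klf7* (0.999, 0.998 and 0.9972), and for *Il2ra*, which was well above background on 2 arrays only, no such genes are given. *Il13ra1* was most like *Rasa2* and *Hif1a* (0.9987 and 0.9972). The pattern of *Il7r* was closest to *C2cd2l*, *Orc6* and *Tmem144* (0.9995, 0.9991 and 0.9987), and that of *Il4ra* to *Pafah1b1*, *Ptges3* and *Psmd7* (0.9964, 0.9959 and 0.9955). *Il21r* had the lowest values, 0.9812 with *Adra2a*, 0.9668 with *Olfml2b* and 0.9647 with *Scnn1a*, which were well above background on 5, 4 and 5 of the 6 arrays. The 6 arrays fall into 3 groups and the genes were picked as the highest of many, so these values are a description.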

How the data were processed

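Cy3 intensity was deposited as scanner output of 6 one-color Agilent arrays, per the file headers already background-corrected by the Feature Extraction software (processed signal). A second file deposited by the authors held log2 values, which stood close to normexp-corrected, quantile-normalized median signals (Pearson r 0.99997 over 59305 spots), with column medians of 5.07, 5.10, 5.09, 5.09, 5.10 and 5.09. It was used as an alternative only.

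Log2 processed signals of spots that were not controls were quantile-normalized, spots with outlier flags were left out, and spots of a probe were averaged. No spot was saturated. All 6 arrays were fitted in 3 groups by lmFit and eBayes of limma (version 3.58.1, R version 4.3.3), and p-values were adjusted by Benjamini-Hochberg over 55680 probes. A gene was counted by its brightest probe. RefSeq names were found for 22220 of 34787 gene names, and the others kept the names in the files. Coordinates are those of the files (mm9). The script was tested on simulated data.

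Members and lists were chosen with earlier results of these data known. All members were named. Of each pathway list, any gene called with LPS+USP7i could be named, and the 3 largest changes in each direction with LPS. The alternatives were 75th percentile scaling, normexp (offset 50), the deposited table, a filter on dim probes, outlier spots kept, a trended prior, a fit of the 2 groups compared, a replicate block, the mean of all probes of a gene, and each array left out. One of the genes most like *Il13ra1* is not reported here.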

Additional observations from a re-analysis of the deposited data

How the results depend on the processing

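The signs of the 16 member differences were kept in all 15 alternatives except *Il21r*, LPS+USP7i minus LPS, which was -0.497 without LPS replicate 1 and 1.01 without LPS replicate 2. With the mean of all probes *Il4ra*, LPS minus untreated, fell to 0.049 ± 0.092, and *Il15ra* rose to 4.10. For genes called with LPS+USP7i against LPS (1919 higher and 1485 lower), a fit of the 2 groups compared gave 0 and 0, where 4330 and 3674 passed an unadjusted p of 0.05 with limma, and 0 and 0 pathway genes, where 4 and 15 did. For LPS minus untreated that fit gave 2582 and 4025 genes and 15 and 4 pathway genes, and the reason for the difference was not tested. These pathway genes were not all the same, since limma no longer called *Il4*, *Crlf2* and *Stat3* there (adjusted p = 0.0649, 0.0631 and 0.0612). Leaving out 1 array gave 0 to 1906 higher and 0 to 1186 lower, with the 0 without either untreated array, and 0 to 2 and 0 to 10 pathway genes. For LPS minus untreated the ranges were 1138 to 2583 higher, 1644 to 4026 lower, and 8 to 15 and 2 to 4 pathway genes. There the remaining array of a group borrows its spread from the rest. With 75th percentile scaling, 12150 genes were higher and 4048 lower with LPS, against 2775 and 4443, and the median of all genes was 0.403. Normexp gave 2882 higher and 2375 lower with LPS+USP7i, and 15 pathway genes lower. Without dim probes 2362 genes and 14 pathway genes were lower. The deposited table gave 2 pathway genes lower with LPS. The cause was not tested. Of the pathway calls, 10 of 20 with LPS and 0 of 12 with LPS+USP7i were kept in all alternatives.

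Replicate numbers are shared between the groups, but nothing states that a number marks a shared experiment, and each number is also a position number on the slide. Deviations of same-numbered arrays correlated over probes (r = 0.468, 0.422 and 0.398). With the replicate block 2932 genes were higher and 4706 lower with LPS, and 1425 and 1124 with LPS+USP7i, with 15 and 4, and 3 and 7 pathway genes, where *Osm* and *Crlf2* were no longer called with LPS, nor *Jak2* and *Ccl24* with LPS+USP7i. Signal near background limits *Il2ra*, *Il13ra1* and the dimmer *Il15ra* probe.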

Other observations

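Many genes differed between the replicate numbers in the same way in each group. Of 15601 genes well above background on all 6 arrays, 24.9% were higher in replicate 1 of every group and 26.4% in replicate 2. Of the 10 macrophage markers 5 and 2 were. The cause of the pattern was not tested. The B cell marker *Ms4a1* had log2 levels of 6.66, 7.93 and 7.08 on the replicate 1 arrays of untreated, LPS and LPS+USP7i cells and 2.67, 5.25 and 4.61 on the replicate 2 arrays, where only the LPS value was well above background. Of the 5 B cell markers, 3 were higher in replicate 1 of each group and none in replicate 2. The neutrophil markers did not agree, with *Ly6g* and *Mpo* higher in replicate 1 of each group and *Elane*, *Camp* and *Ltf* in replicate 2. Replicate number and a position number on the slide coincide. These genes were picked from the fixed marker lists after their values were seen. *Il21r* was higher on the replicate 2 array of each group, as were 3 of the 6 T cell markers (*Lck*, *Cd5* and *Cd28*), with 1 (*Cd3e*) higher in replicate 1. The part of other cells in it was not tested.

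*Il2ra* and *Il15ra* are neighbors on chromosome 2, with no other protein-coding gene between them in the RefSeq table (GRCm38.p6, used for gene order only). On either side, *Rbm17* had mean log2 levels of 11.48, 11.93 and 11.74 in untreated, LPS and LPS+USP7i cells, and *Fbh1* 12.02, 11.51 and 10.79. *Il4ra* and *Il21r* are neighbors on chromosome 7, where the flanking *Nsmce1* had levels of 11.50, 10.88 and 10.55 and *Gtf3c1* 8.86, 8.04 and 8.12. Next outward, *Pfkfb3* beyond *Rbm17* had levels of 10.87, 12.14 and 11.65, and *Gm46731* beyond *Fbh1* was not held on the arrays. *Kdm8* beyond *Nsmce1* had 8.19, 7.94 and 8.07, and *D430042O09Rik* beyond *Gtf3c1* had 10.38, 9.36 and 9.15. The flanking genes were chosen by position after the members' values were seen, and no test was run on them.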
